A study of Mus musculus with 2 samples.

Results

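The 10 genes described here are the main ligands and receptors of the vascular endothelial growth factor (VEGF) and angiopoietin families in visceral adipose tissue (VAT). They were taken by symbol from the count tables and make up 10 of the 56980 genes listed there. The ligands are Vegfa, Vegfb, Vegfc, Angpt1 and Angpt2, and the receptors and co-receptor are Flt1, Kdr, Flt4, Nrp1 and Tek. The question addressed was which cell types carried transcripts of the ligands and which carried those of the receptors. Single-nucleus RNA sequencing (snRNA-seq) was performed on gonadal fat from 2 female C57BL/6J mice aged 2 months, with 1 library per mouse, referred to as VAT young replicate 1 and replicate 2. Both mice belonged to the same group and carried no stated allele or treatment, so the comparisons are between cell types within the libraries. The subcutaneous and aged samples were left aside and not analysed here. The labels give the cell type as adipocytes, but the nuclei also carried markers of progenitor, mesothelial, vascular and immune cells.

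VEGF proteins bind receptor tyrosine kinases on the endothelium that drive the growth, permeability and survival of vessels. Vegfa acts mainly through the receptor encoded by Kdr, Flt1 binds Vegfa and Vegfb and can act as a decoy, and Vegfc acts through Flt4 on lymphatic vessels. Nrp1 encodes neuropilin-1, a co-receptor shared with the class 3 semaphorins. Angpt1 activates the receptor Tie2, encoded by Tek, and stabilises vessels, while Angpt2 acts on the same receptor, often as an antagonist. In fat, the capillary network expands and regresses together with the adipocytes.

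In GENCODE vM39 on the GRCm39 assembly, the 10 members lay on 7 chromosomes. Vegfa was at chr17:46327919-46343309, Vegfb at chr19:6958447-6965127 and Vegfc at chr8:54530257-54640131. Angpt1 was at chr15:42288058-42540417 and Angpt2 at chr8:18739202-18791603. The receptor genes Flt1 and Kdr were both on chromosome 5, at chr5:147498414-147662826 and chr5:76093487-76139884. Flt4 was at chr11:49500090-49543582, Nrp1 at chr8:129085085-129231082 and Tek at chr4:94627291-94763224. Counts were per gene, so a transcript isoform, a soluble Flt1 form for example, could not be separated from the rest of its gene.

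RefSeq promoter sequences matched 8 of the 10 members, all except Angpt1 and Angpt2. Those of Flt1, Kdr, Flt4 and Tek are shown because these 4 encode the receptor tyrosine kinases among the members and were each highest in endothelial-like nuclei. Nrp1, a co-receptor, and the ligand gene Vegfc were also highest there and are not printed. Each is given as the 250 bases before the RefSeq transcription start on GRCm38.p6, written 5' to 3' on the gene's strand. The windows are chr5:147726012-147726261 for Flt1 on the minus strand, chr5:75978456-75978705 for Kdr on the minus strand, chr11:49609429-49609678 for Flt4 on the plus strand and chr4:94739039-94739288 for Tek on the plus strand. Capitals mark GGAA or its reverse complement TTCC, the core that transcription factors of the ETS family recognise.
Flt1: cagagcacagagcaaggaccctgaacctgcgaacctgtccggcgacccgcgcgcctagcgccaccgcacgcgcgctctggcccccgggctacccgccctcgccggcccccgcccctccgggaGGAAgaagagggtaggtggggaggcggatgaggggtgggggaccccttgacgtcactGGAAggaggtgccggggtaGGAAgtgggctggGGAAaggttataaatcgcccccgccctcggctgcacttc
Kdr: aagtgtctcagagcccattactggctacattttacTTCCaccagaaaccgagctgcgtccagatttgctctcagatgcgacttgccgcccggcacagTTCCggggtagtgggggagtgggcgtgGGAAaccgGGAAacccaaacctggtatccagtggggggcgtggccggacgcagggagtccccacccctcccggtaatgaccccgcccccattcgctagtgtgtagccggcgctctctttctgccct
Flt4: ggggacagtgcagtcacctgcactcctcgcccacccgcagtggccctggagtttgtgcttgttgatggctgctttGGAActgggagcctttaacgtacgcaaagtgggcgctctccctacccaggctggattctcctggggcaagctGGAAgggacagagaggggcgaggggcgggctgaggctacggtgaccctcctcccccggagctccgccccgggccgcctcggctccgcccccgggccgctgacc
Tek: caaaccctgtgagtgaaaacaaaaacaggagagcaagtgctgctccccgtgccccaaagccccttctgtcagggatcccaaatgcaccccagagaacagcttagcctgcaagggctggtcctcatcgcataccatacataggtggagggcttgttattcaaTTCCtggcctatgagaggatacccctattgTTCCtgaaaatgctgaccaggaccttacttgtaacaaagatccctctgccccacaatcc
Flt1 and Kdr held 4 such cores each, and Flt4 and Tek held 2 each, while Nrp1 held 4 and Vegfc 1. The core was in 93.4% of the 32851 promoters of this length, so its presence did not set these genes apart. The core of the hypoxia response element, ACGTG on either strand, was found in none of the 8 member promoters and in 16.6% of all promoters. The nuclear receptor motif AGGTCA, searched on either strand and present in 14% of all promoters, was found 2 times in the Vegfb promoter and 1 time in the Nrp1 promoter.

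Nuclei with more than 500 genes, more than 1000 unique molecular identifiers (UMIs) and under 15% mitochondrial UMIs were kept, which left 2833 nuclei in replicate 1 and 12225 in replicate 2. The median depth was 2221 and 2726 UMIs per nucleus. The median mitochondrial share was 6.2% in replicate 1 and 0.621% in replicate 2, and 27 kept barcodes occurred in both libraries. Clusters were named from marker lists that held none of the 10 members and the members and pathway genes were left out of the clustering. The types were nevertheless drawn from the same nuclei, so a p-value describes the separation of these clusters. The named types were 6, namely 6052 adipocyte-like, 1597 fibro-adipogenic progenitor-like (FAP-like), 2126 mesothelial-like, 522 endothelial-like, 193 mural-like (smooth muscle and pericyte markers) and 1406 immune-like nuclei. A further 3162 nuclei stayed unnamed because transcripts of odorant and vomeronasal receptors, which fat should lack, were raised there. Mural-like nuclei numbered 24 in replicate 1 and 169 in replicate 2, and endothelial-like nuclei 67 and 455, so values for these types in replicate 1 were the least precise.

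Levels are given as UMIs of the gene per 1000000 UMIs of the cell type (CPM), in replicates 1 and 2 in that order. For each type, the contrast was with the mean over the other 5 types on UMIs summed per library, using edgeR's quasi-likelihood test with the library as a block and Benjamini-Hochberg adjustment over 13374 genes. A gene is called higher or lower at an adjusted p under 0.05 and at least a 2-fold change. A value for 1 replicate alone is not from that test. It is the type's log2 CPM minus the mean over the other 5 types, with a prior count of 2 added before the log. This pulls low counts together, so the tested value can lie outside both such values. A type without a UMI lowers the mean of the others, as mural-like nuclei of replicate 1 did for Vegfb, Vegfc and Tek. Immune-like nuclei of replicate 1 did so for Flt4. Over the 60 tests of 10 members in 6 types, 14 were called higher, 12 lower and 34 were not called, some of which passed only 1 of the thresholds.

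**Figure D1:**
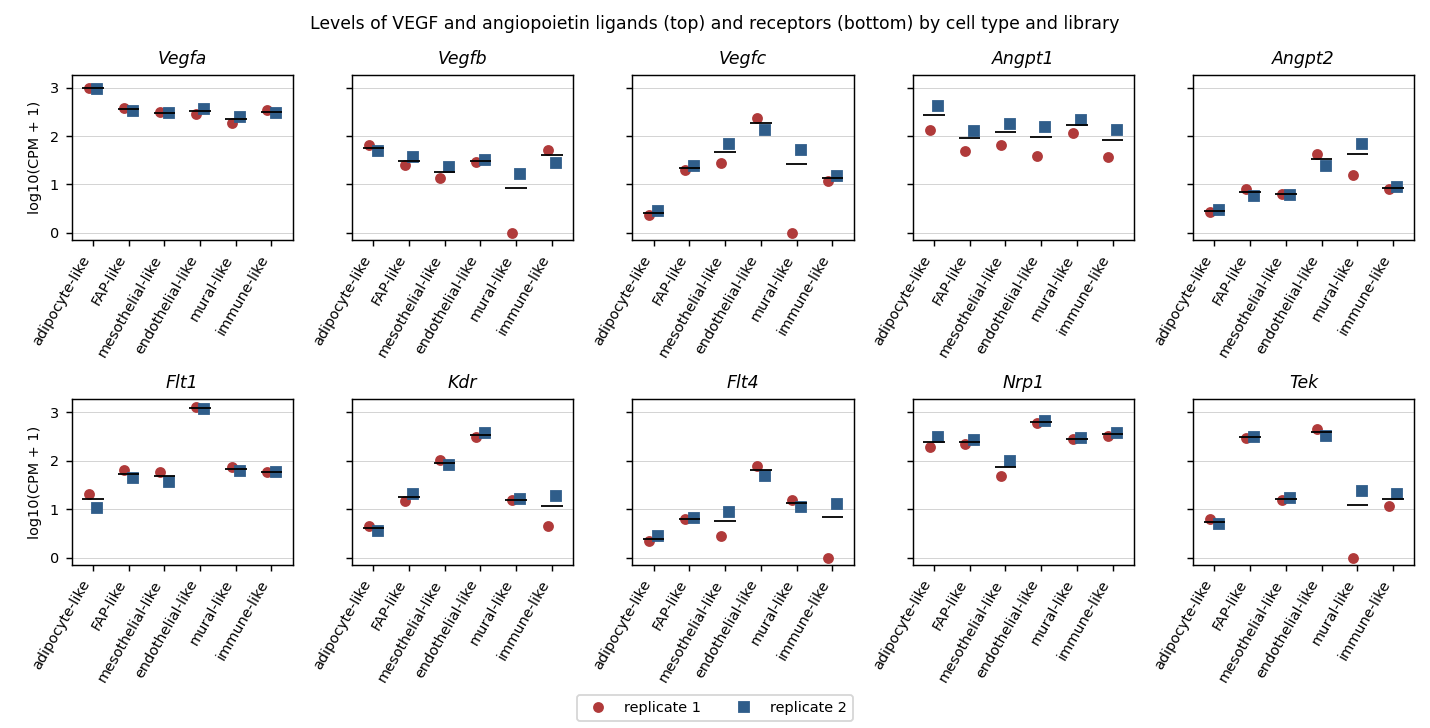
Level of each member, as log10(CPM + 1), in the 6 cell types. Circles show replicate 1, squares replicate 2 and lines the mean of both. Vegfa stood highest in adipocyte-like nuclei at 982 and 940 CPM, Flt1 and Kdr stood highest in endothelial-like nuclei, and Tek was high in both endothelial-like and FAP-like nuclei.

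Among the ligands, Vegfa, Vegfb and Angpt1 were higher in adipocyte-like nuclei, 3 of the 10 members against 13.6% of all genes tested. That background depends on the scaling, since 1825 genes were higher and 3490 lower in this type here, 744 and 4409 with total UMI scaling and 1035 and 4067 with DESeq2. Vegfa, the principal angiogenic factor, reached 982 and 940 CPM there (961 ± 29.8, SD, n = 2). In the other 5 types it lay between 188 and 377 CPM, so the groups did not overlap. The difference was 2.10 ± 0.15 (SE) on the log2 scale, with an edgeR adjusted p of 1.13e-21. Next in order after adipocyte-like nuclei came FAP-like nuclei at 377 and 333 CPM, and the difference between these neighbours passed the test (edgeR adjusted p = 6.83e-11), as did 48.1% of all genes at any fold between these types. The remaining neighbours in the order, from FAP-like through endothelial-like, immune-like and mesothelial-like to mural-like nuclei, did not differ beyond their spread. A median of 3 Vegfa UMIs in replicate 1 and 5 in replicate 2 was found per adipocyte-like nucleus, and 12.3% and 3.73% of these nuclei had none.

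Vegfb, which has been studied for its role in fatty acid uptake and in coronary vessels, was less often counted. It reached 63.6 and 48.3 CPM in adipocyte-like nuclei, against 0 to 50.4 CPM in the other types. Its log2 difference was 1.60 ± 0.24 (SE, edgeR adjusted p = 1.49e-08), at 2.70 in replicate 1 alone and 1.43 in replicate 2 alone. Immune-like nuclei at 50.4 and 27.4 CPM followed, and mural-like nuclei were lowest with 0 and 6 UMIs in all, a count of 0 that allows up to 43.4 CPM in replicate 1. The groups overlapped, since immune-like nuclei of replicate 1 stood above adipocyte-like nuclei of replicate 2, but the difference between these types passed the test (edgeR adjusted p = 0.00198), where 55.9% of all genes did.

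Angpt1, the agonist of Tie2, was found at 132 and 414 CPM in adipocyte-like nuclei. Every type held more Angpt1 in replicate 2 than in replicate 1, and this difference between 2 mice of 1 group could not be tested. Within each library the adipocyte-like level was the highest, and the blocked log2 difference was 1.80 ± 0.16 (SE, edgeR adjusted p = 7e-17). Mural-like nuclei came second at 116 and 217 CPM and differed from adipocyte-like nuclei (log2 difference 1.33 ± 0.28, SE, edgeR adjusted p = 9.84e-05), as did 32.2% of all genes. The ratio of these CPM was only 1.14 in replicate 1 and 1.91 in replicate 2, and CPM, unlike the tested difference, carry no TMM scaling (edgeR's trimmed mean of M values, a correction for library composition). Pericytes are a known source of Angpt1 in other vessels. Mesothelial-like, endothelial-like, FAP-like and immune-like nuclei followed at 36 to 64.9 CPM in replicate 1 and 129 to 175 CPM in replicate 2, with no difference between neighbours that passed the test.

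The levels of these ligands outside adipocyte-like nuclei have to be read beside those of adipocyte markers in the same nuclei. The 10 markers, among them Adipoq and Plin1, were at a median of 26.4% to 45.5% of their adipocyte-like level in the other types, and none of them was at 0. Vegfa in the other types was at 19.1% to 38.9% of its adipocyte-like level, within the range of the 10 markers in each of the 5 types and both libraries. Angpt1 exceeded the highest of the markers in 3 of these 10 cases, among them mural-like nuclei in both libraries at 87.7% and 52.4%, where the highest marker was at 52.9% and 46.6%. These mural-like levels rested on 8 and 86 Angpt1 UMIs. Of these UMIs, 8 and 79 lay in a mural subcluster with raised adipocyte and pericyte markers. The third case was mesothelial-like nuclei of replicate 1 at 49.2%, where the highest marker was at 43.25%. Vegfb exceeded it in 2 cases and was below the lowest in 1. Without the subclusters that held adipocyte markers, the marker medians were 9.41% to 32.3%. Vegfa was then at 9.28% to 30.1%, within the marker range in 9 of the 10 cases and above it in FAP-like nuclei of replicate 1, at 30.1% against a highest marker of 29%. Vegfb was then above the range in 4 cases and below it in 2, and Angpt1 above it in 3. The part of free RNA or joined nuclei in these levels was not tested.

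A second group of ligands was low in adipocyte-like nuclei, where Vegfc and Angpt2 were called lower, as were Kdr, Tek, Flt1 and Flt4. These 6 members compare with 26.1% of all genes that were lower in that type. Vegfc, the lymphangiogenic ligand, was found at 1.4 and 1.81 CPM in adipocyte-like nuclei (log2 difference -4.07 ± 0.35, SE, edgeR adjusted p = 2.73e-17, and -2.74 in replicate 1 alone). It was highest in endothelial-like nuclei at 237 and 135 CPM, and 3.39 ± 0.27 (SE) higher than in the other types on the log2 scale (edgeR adjusted p = 4.31e-19). That value was 5.20 in replicate 1 alone, where mural-like nuclei held no Vegfc UMI, and 2.71 in replicate 2 alone. Mesothelial-like nuclei followed at 27 and 66.1 CPM and were also called higher, by 1.36 ± 0.26 (SE, edgeR adjusted p = 2.22e-05), a call that was lost with 15 principal components at 0.93. The difference between endothelial-like and mesothelial-like nuclei passed the test (edgeR adjusted p = 6.02e-05), which 16.3% of all genes did, and the next 3 steps, to mural-like, FAP-like and immune-like nuclei, did not. Immune-like nuclei at 10.8 and 13.9 CPM were called lower at -1.19 ± 0.36 (SE, edgeR adjusted p = 0.00764). That call was lost under DESeq2 (-1.02, adjusted p = 0.136) and without the replicate block (-1.16, edgeR adjusted p = 0.128). It was also lost with the 6% of highest doublet scores removed (-0.99), so the value stayed similar in all of these. The value was 0.02 in replicate 1 alone, where mural-like nuclei held no Vegfc UMI.

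Angpt2, which endothelial cells store and release on activation, had only 49 and 269 UMIs in all kept nuclei. Mural-like nuclei were called higher by 2.86 ± 0.52 on the log2 scale (SE, edgeR adjusted p = 1.66e-05), but the level rested on 1 UMI in replicate 1 and 27 in replicate 2, or 14.5 and 68.1 CPM. In replicate 1 alone the log2 value was 0.48. Endothelial-like nuclei, at 41.7 and 22.6 CPM, were called higher by 1.85 ± 0.49 (SE, edgeR adjusted p = 0.0038), at 2.61 in replicate 1 alone and 1.36 in replicate 2 alone. The difference between these types did not pass the test (edgeR adjusted p = 0.517), while that between endothelial-like and immune-like nuclei did (edgeR adjusted p = 0.0254). Of all genes, 9.89% differed in the former pair and 16.9% in the latter. The remaining types held 1.75 to 7.67 CPM. The lower call in adipocyte-like nuclei, -2.26 ± 0.47 (SE), was lost at -1.23 with the stricter mitochondrial limit of 5%. Mural-like nuclei were then too few to be tested, so the mean of the other types did not include them.

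The receptors and the co-receptor were each called higher in endothelial-like nuclei, as were the ligands Vegfc and Angpt2. In endothelial-like nuclei 7 of the 10 members were called higher, against 6.54% of all genes, and none lower, against 2.22%. At an unadjusted p under 0.05, 1 member, Angpt1, was lower there (log2 difference -0.55), and DESeq2 called none. Flt1, which encodes VEGF receptor 1, reached 1299 and 1152 CPM in these nuclei (1225 ± 104, SD, n = 2). The other types held 9.68 to 72.3 CPM. The log2 difference of 4.77 ± 0.15 (SE) was the largest of any member in any type in this fit (edgeR adjusted p = 1.03e-43). The steps from mural-like through immune-like and FAP-like to mesothelial-like nuclei did not pass the test, and adipocyte-like nuclei were lowest at 20.1 and 9.68 CPM, below mesothelial-like nuclei (edgeR adjusted p = 1.26e-05), a pair in which 50.9% of all genes differed.

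Kdr, which encodes VEGF receptor 2, had 315 and 377 CPM in the endothelial-like type, 4.38 ± 0.21 (SE) above the other types (edgeR adjusted p = 3.83e-32). It also had a second site. Mesothelial-like nuclei held 101 and 81.1 CPM, and were called higher by 2.11 ± 0.23 on the log2 scale (SE, edgeR adjusted p = 1.07e-12), at 2.73 in replicate 1 alone and 1.79 in replicate 2 alone. The mesothelium is the sheet of cells that covers visceral fat. Endothelial-like nuclei exceeded mesothelial-like nuclei (edgeR adjusted p = 2.47e-08), and these exceeded FAP-like nuclei at 14 and 19.3 CPM (edgeR adjusted p = 6.68e-09), where 13.4% of all genes differed. The 10 endothelial markers summed to 286.5 and 240.5 CPM in mesothelial-like nuclei, against 7110 and 5565 CPM in endothelial-like nuclei. The Kdr level differed by a factor of 3.13 and 4.65 between these types. The part of free RNA or joined nuclei in the mesothelial-like Kdr level was not tested. No pair among FAP-like, mural-like and immune-like nuclei passed the test (edgeR adjusted p = 0.508, 0.826 and 0.985), and adipocyte-like nuclei were lowest at 3.49 and 2.6 CPM. The lower calls of Kdr stood at -2.61 and -3.35 in adipocyte-like and at -2.90 and -0.95 in immune-like nuclei, in replicates 1 and 2 alone.

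Flt4, which encodes VEGF receptor 3, had 78.9 and 47 CPM in the endothelial-like type and at most 14.5 CPM in the other types. It was called higher there by 3.39 ± 0.44 (SE, edgeR adjusted p = 1.17e-09), on 17 and 52 UMIs. This value was 4.18 with 15 principal components and 4.34 with the members and pathway genes among the clustering features. It was 4.71 in replicate 1 alone and 2.69 in replicate 2 alone. In adipocyte-like nuclei, where Flt4 was called lower, the values in replicates 1 and 2 alone were -1.51 and -2.02. The next type, mural-like, rested on 1 and 4 UMIs. Flt4 is a classical marker of lymphatic endothelium, which formed no cluster of its own at the resolution used. At a resolution of 0.3, 28 nuclei with all 5 lymphatic markers raised, among them Prox1 and Ccl21a, separated from the unnamed cluster. Of these, 26 came from replicate 2, where they held 116 Flt4 UMIs, or 1632 CPM with an exact Poisson 95% interval of 1349 to 1958. That was 28.9% of the Flt4 UMIs of this library in 26 of 12225 nuclei. The same nuclei held 436 CPM of Kdr (31 UMIs), 366 CPM of Tek (26 UMIs) and 141 CPM of Angpt2 (10 UMIs), against 70.3 CPM of Flt1 (5 UMIs) and 42.2 CPM of Nrp1 (3 UMIs). The 2 such nuclei in replicate 1 held no Flt4 UMI, which allows up to 1345 CPM. They were fewer than the 20 nuclei required per library, so no test was run. The intervals cover counting error only.

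Nrp1 was the most widely spread receptor. Endothelial-like nuclei held 589 and 648 CPM, called higher by 1.43 ± 0.17 (SE, edgeR adjusted p = 4.56e-11). Immune-like nuclei at 329 and 375 CPM, mural-like nuclei at 275 and 288 CPM, adipocyte-like nuclei at 195 and 303 CPM and FAP-like nuclei at 222 and 273 CPM followed. Endothelial-like nuclei exceeded immune-like nuclei (edgeR adjusted p = 0.00593), and the 3 steps from there to FAP-like nuclei did not pass the test. Mesothelial-like nuclei stood apart at 48.6 and 97.6 CPM and were called lower by -2.09 ± 0.21 on the log2 scale (SE, edgeR adjusted p = 7.66e-14), among 2 members lower in this type against 2.91% of all genes.

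Tek, which encodes Tie2, had 2 sites that the test did not separate. Endothelial-like nuclei held 445 and 329 CPM and FAP-like nuclei 290 and 315 CPM, the latter being the progenitors of adipocytes and fibroblasts. The calls were 3.89 ± 0.20 (SE, edgeR adjusted p = 1.8e-30) and 3.62 ± 0.18 (SE, edgeR adjusted p = 1.59e-30). In replicate 1 alone they were 5.19 and 4.61, and in replicate 2 alone 3.58 and 3.55. The replicate 1 values were set against a mean that included mural-like nuclei without a Tek UMI. The lower calls of Tek stood at -1.90 and -3.29 in adipocyte-like and at -0.51 and -1.50 in mesothelial-like nuclei, in replicates 1 and 2 alone. The mesothelial-like call was lost with 15 principal components at -0.88. Tek was the only member of the 10 called higher in FAP-like nuclei, against 7.72% of all genes. None was called lower there, against 2.31%, and DESeq2 called none. Angpt1 and Flt1 had log2 differences of -0.59 and -0.64 (edgeR adjusted p = 0.0435 and 0.0297) and missed only the 2-fold limit. Kdr, at -0.70, had an unadjusted p under 0.05 but did not pass adjustment (edgeR adjusted p = 0.119). The difference between these sites was 0.23 on the log2 scale with an SE of 0.24 (edgeR adjusted p = 0.686), so it was not resolved. The other types held 0 to 22.7 CPM, and FAP-like nuclei exceeded the next type, immune-like, by 4.20 ± 0.30 (SE, edgeR adjusted p = 3.19e-21), a pair in which 21.5% of all genes differed. The endothelial markers together reached 125.7 and 175 CPM in FAP-like nuclei, against 7110 and 5565 CPM in endothelial-like nuclei. The Tek level differed by a factor of 1.54 and 1.04 between these types. Without the subclusters that held adipocyte markers, it was 586 and 479 CPM in endothelial-like and 345 and 396 CPM in FAP-like nuclei. The part of free RNA or joined nuclei in the FAP-like Tek level was not tested. Adipocyte-like nuclei, the type with the highest Angpt1 level, were lowest in the mean of both libraries at 5.24 and 3.9 CPM of this receptor. Mural-like nuclei of replicate 1 held no Tek UMI, which at 24 nuclei allows up to 43.4 CPM.

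In the neighbouring order over all members, 17 of 50 adjacent pairs of types differed at an adjusted p under 0.05 at any fold. Across the 15 pairs of types, 8.7% to 55.9% of all genes differed at that threshold, with a median of 16.9%, and the pair of adipocyte-like and endothelial-like nuclei stood at 39.9%. In mural-like nuclei, Angpt2 was 1 of 10 members called higher against 4.82% of all genes, and Vegfa 1 of 10 called lower against 2.62%. Over all genes 645 were higher and 351 lower there, and 772 and 137 with total UMI scaling. The Vegfa call (-1.02 ± 0.23, SE) was lost under 6 of the alternatives, among them the removal of subclusters that held adipocyte markers, where the value was -0.15 (edgeR adjusted p = 0.825). That removal touched the other types only, since the mural subcluster with raised adipocyte and pericyte markers, 153 of the 193 nuclei, was kept. In immune-like nuclei Tek, Kdr and Vegfc were lower, against 6.64% of all genes, and no member was called higher, against 10.6%; at an unadjusted p under 0.05, Nrp1 was higher there (log2 difference 0.46 ± 0.17, SE, edgeR adjusted p = 0.0379) and DESeq2 also called none. In mesothelial-like nuclei 2 members were higher, against 10% of all genes.

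**Figure D2:**
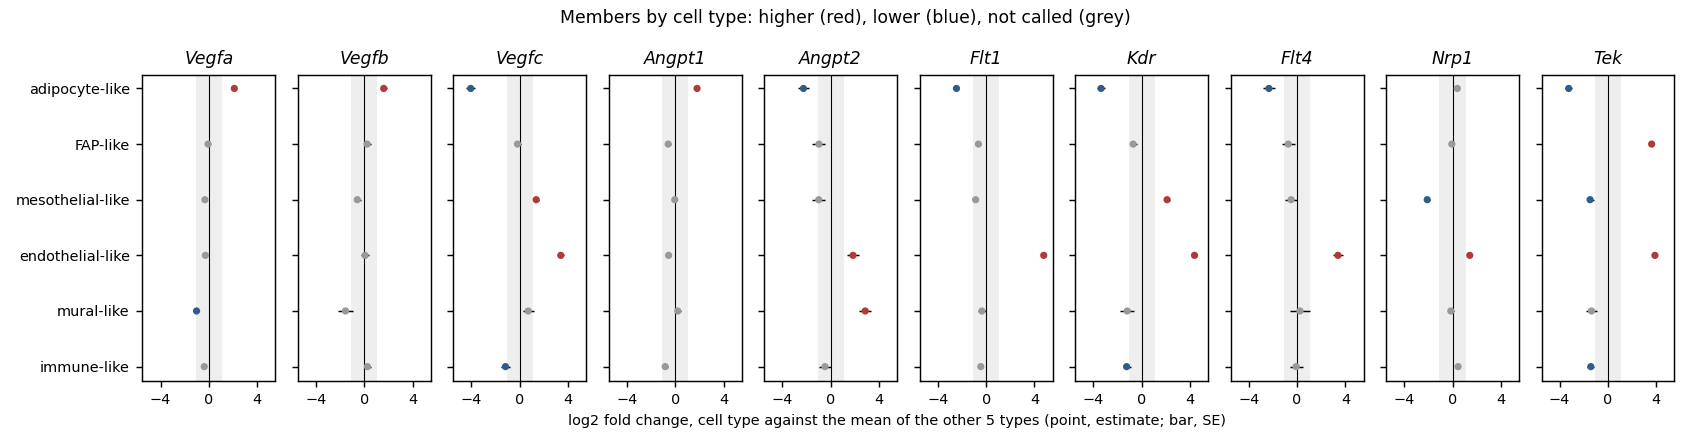
Log2 fold change of each member in each cell type against the mean of the other 5 types, with its SE. Red marks calls of higher, blue calls of lower and grey no call, and the grey band spans changes under 2-fold. Flt1 in endothelial-like nuclei was the largest at 4.77, and Tek was the only member called higher in FAP-like nuclei, at 3.62.

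The source of the ligands and the site of the receptors also depend on how many nuclei each type contributes. Adipocyte-like nuclei made up 55.6% and 36.6% of the kept nuclei and 67.6% and 60.8% of all UMIs. They held 82.6% and 78.1% of the Vegfa UMIs, 79.3% and 70.8% of the Vegfb UMIs and 79.8% and 77.3% of the Angpt1 UMIs, each above the share of all UMIs in both libraries. The exact Clopper-Pearson 95% interval for Vegfa was 81.7% to 83.5% in replicate 1 and 77.7% to 78.5% in replicate 2. Nrp1 had 65.6% and 66% of its UMIs in adipocyte-like nuclei, below the share of all UMIs in replicate 1 and above it in replicate 2.

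Endothelial-like nuclei made up 2.37% and 3.72% of nuclei and held 43.5% and 48.7% of the Flt1 UMIs. For Kdr they held 41.5% and 35.6%, and mesothelial-like nuclei held 34.1% and 33.6%. The Tek UMIs lay mainly in FAP-like nuclei, at 49.6% and 56.8%, with 28.7% and 18.4% in endothelial-like nuclei. Vegfc was split differently in the mice, with 48.1% in endothelial-like and 14.2% in mesothelial-like nuclei of replicate 1, and 19.5% and 42% in replicate 2. Mesothelial-like nuclei themselves made up 7.84% and 15.6% of nuclei and 6.56% and 10.1% of all UMIs. FAP-like nuclei made up 9.21% and 10.9% of nuclei. Angpt2 and Flt4 had large shares in the unnamed cluster, at 36.7% and 36.1% for Angpt2 and 21.6% and 51% for Flt4. Flt1 had 22.4% and 20.9% of its UMIs there, where 9.12% and 12.8% of all UMIs lay. The unnamed cluster matched adipocytes best, with 7 of 10 adipocyte markers raised. With 15 principal components, or with members and pathway genes among the features, no nuclei stayed unnamed. The mean Angpt2 share in adipocyte-like nuclei was then 35.2% and 53.2%, against 20.8% in the main clustering. The mean Flt4 share in endothelial-like nuclei was then 45.1% and 42.7%, against 29.4%. These shares are of RNA captured in nuclei, not of the tissue.

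**Figure D3:**
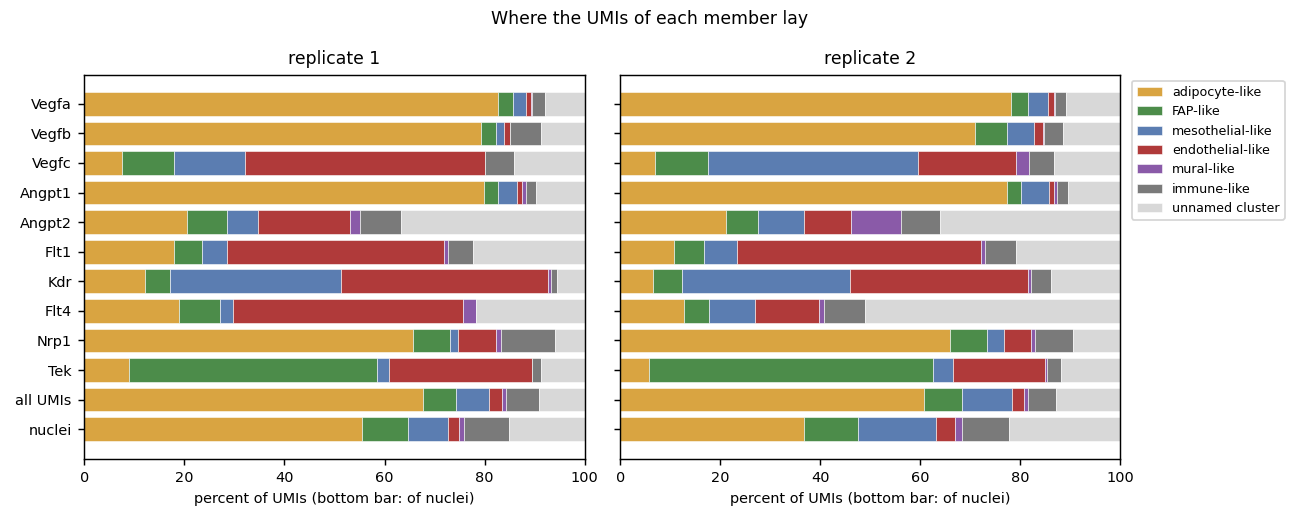
Percent of each member's UMIs that lay in each cell type and in the unnamed cluster, with all UMIs and nuclei as the lowest bars. Adipocyte-like nuclei held 82.6% and 78.1% of the Vegfa UMIs but 8.96% and 5.75% of the Tek UMIs.

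To compare single nuclei at equal depth, each nucleus was thinned to 1000 UMIs. A Vegfa UMI was then found in 61.7% and 59% of adipocyte-like nuclei, against 15.6% to 27.6% in the other types. Unthinned, 87.7% and 96.3% of adipocyte-like nuclei had one, at a median of 2948 and 6184 UMIs per nucleus. Endothelial-like nuclei had a median of 2030 and 1743 UMIs. Flt1 was found in 56.7% and 59.6% of endothelial-like nuclei, and in 2.22% and 1.23% of adipocyte-like nuclei, which should lack it. The other 4 types lay between these at 4.15% to 6.51%, and the part of free RNA in these shares was not tested. Kdr was found in 19.4% and 30.1% of endothelial-like and 9.01% and 7.46% of mesothelial-like nuclei, against 0.318% and 0.246% of adipocyte-like nuclei and 0% to 1.83% of FAP-like, mural-like and immune-like nuclei. Tek was found in 23.9% and 26.2% of endothelial-like nuclei and in 23% and 24.4% of FAP-like nuclei, against 0.826% and 0.424% of adipocyte-like nuclei and 0% to 1.95% of the remaining types. A Vegfc UMI was found in 16.4% and 8.13% of endothelial-like nuclei and in 3.6% and 5.5% of mesothelial-like nuclei. The shares were 0.191% and 0.201% in adipocyte-like nuclei and 0% to 2.96% in the remaining types. Without thinning, 17.9% and 13.4% of endothelial-like nuclei had a Vegfc UMI.

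Receptors were also counted together in the same nucleus. Of endothelial-like nuclei, 67.2% in replicate 1 and 76.9% in replicate 2 held a UMI of at least 2 of the 5 receptor genes, and 7.46% and 6.15% held none. After thinning to 1000 UMIs these shares of at least 2 were 46.3% and 53.85%. In FAP-like nuclei the thinned share with exactly 2, a narrower count that leaves out nuclei with more, was 5.36% and 5.84%. In the remaining types apart from endothelial-like nuclei it was 0% to 4.14%. Among endothelial-like nuclei with a Flt1 UMI, 44% and 45.3% also had a Kdr UMI, compared with 29.4% and 34.2% of those without. Over the 5 pairs of receptors counted in both libraries, the second was more frequent with the first in 9 of 10 cases. For Flt1 and Tek the shares were 44% against 29.4% and 44.4% against 34.2%, and for Flt1 and Nrp1 60% against 41.2% and 67.8% against 57.3%. The exception was Kdr and Nrp1 in replicate 1. A Nrp1 UMI was found in 51.9% of nuclei with Kdr and 57.5% of those without in replicate 1, but in 75.6% and 57.3% in replicate 2. A Tek UMI was found in 63% of nuclei with Kdr and 25% of those without in replicate 1, and in 43.5% and 40.5% in replicate 2. A nucleus with more UMIs has a higher chance of both, and the part of depth in these values was not tested.

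**Figure D4:**
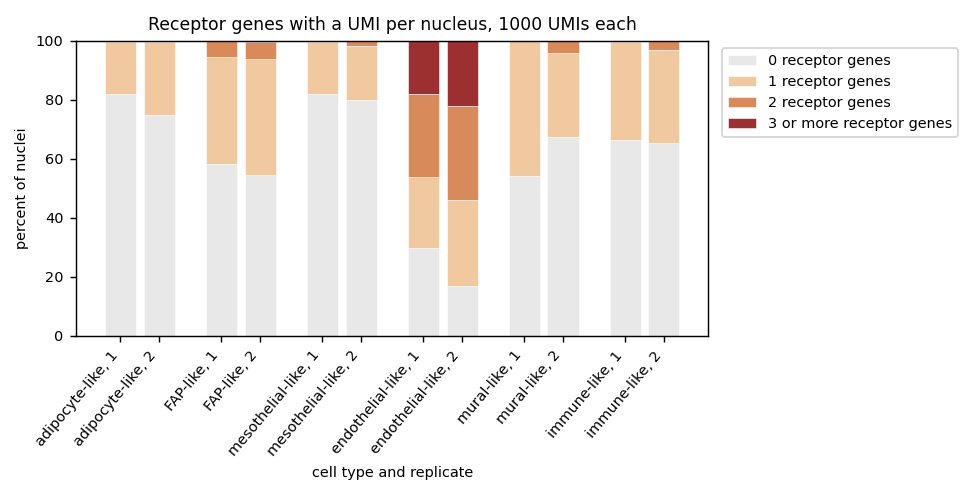
Percent of nuclei with a UMI of 0, 1, 2 or at least 3 of Flt1, Kdr, Flt4, Nrp1 and Tek, after thinning each nucleus to 1000 UMIs, by cell type and replicate. Endothelial-like nuclei had at least 2 receptor genes in 46.3% and 53.85% of nuclei.

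Each type was clustered again to see how the members varied within it. Adipocyte-like nuclei split into 5261 nuclei and 791 nuclei led by Cidea, Ucp1 and Dio2, genes of thermogenic adipocytes. Nrp1 was 415 and 500 CPM in the latter and 165 and 263 CPM in the former, a log2 difference of 1.11 ± 0.14 (SE, edgeR adjusted p = 2.03e-10). Of the 8 members tested there, all except Vegfc and Flt4, Nrp1 was the 1 called higher, against 2.21% of all genes, and none of the 8 was called lower, against 2.01%, or had a lower value at an unadjusted p under 0.05. Angpt1 was 249 and 489 CPM against 116 and 398 CPM, a difference of 0.64 ± 0.15 (SE, edgeR adjusted p = 8.97e-04) that stayed under 2-fold. Vegfa was 1063 and 957 CPM against 972 and 937 CPM, a difference of 0.08 ± 0.14 (SE, edgeR adjusted p = 0.892).

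Among immune-like nuclei, where only Vegfa, Angpt1, Flt1 and Nrp1 had enough UMIs to be tested, 803 were led by Cd209f, Lyve1 and Folr2, genes of resident macrophages. They held 494 and 488 CPM of Nrp1, 1.13 ± 0.22 (SE) above the mean of the other immune subclusters on the log2 scale (edgeR adjusted p = 2.97e-04), and Flt1 was also called higher there by 1.24 ± 0.41 (SE, edgeR adjusted p = 0.0343). Higher calls made up 9.21% of all genes in that contrast and lower calls 2.55%, among them Vegfa at -1.04 ± 0.25 (SE, edgeR adjusted p = 0.00303). The mean of the other subclusters included 1 of 169 nuclei with all adipocyte markers raised and 873 and 801 CPM of Vegfa, while the level was 212 and 117 CPM in the 803 nuclei. A subcluster of 235 nuclei led by Lyz1, Clec9a and Ccr2 held 189 and 181 CPM of Nrp1 and 145 and 122 CPM of Vegfa. Against the same kind of mean, Vegfa (-1.39) and Angpt1 (-1.51) were called lower, against 8.05% of all genes, and none of the 4 higher, against 11.2%, or at an unadjusted p under 0.05. In the 54 nuclei led by Saa3 and Prg4 none of the 4 was called, against 7.2% of all genes higher and 3.56% lower, and none had an unadjusted p under 0.05.

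A single subcluster in each of the FAP-like, mesothelial-like, immune-like and endothelial-like types held adipocyte markers and a raised mean doublet score, 0.139 to 0.268 against 0.0583 to 0.0766 in the largest subcluster of the same type. In these, Vegfa was 631 to 873 CPM in both libraries, against 87.7 to 297 CPM in the largest subclusters. The endothelial-like one also had pericyte and macrophage markers raised and a median of 3.69% mitochondrial UMIs, against 0.996% in the largest. In it Vegfa was called higher and Vegfc, Tek, Flt1 and Kdr lower, against 7.02% of all genes higher and 5.77% lower. In the FAP-like one Vegfa and Angpt1 were higher and Tek and Vegfc lower, against 8.67% and 11%. In the mesothelial-like one Vegfa, Nrp1, Vegfb and Angpt1 were higher and Vegfc, Kdr and Flt1 lower, against 8.66% and 12.7%. In the immune-like one Vegfa and Angpt1 were higher and Flt1 lower, against 14.3% and 17.2%. The part of doublets in these levels was not tested. Without them, Vegfa averaged 251 CPM in FAP-like, 135 in mesothelial-like, 122 in endothelial-like and 162 in immune-like nuclei. Flt1 then averaged 1683 CPM in endothelial-like nuclei, and Tek averaged 532 CPM there and 370 CPM in FAP-like nuclei. Without them 14 higher and 13 lower calls were made. The 300 nuclei of the largest endothelial-like subcluster held 344 and 265 CPM of Vegfc and 1593 and 1868 CPM of Flt1. In mesothelial-like nuclei the largest subcluster held 121 and 102 CPM of Kdr, against 40 and 22.3 CPM in the subcluster with adipocyte markers.

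The wider pathway was followed in 6 lists of 62 further genes, of which 58 could be tested. Over all lists, 20 genes were higher and 3 lower in endothelial-like nuclei, against 6.54% and 2.22% of all genes. In adipocyte-like nuclei 5 were higher and 26 lower, against 13.6% and 26.1%, shares that move with the scaling as given above. In mesothelial-like nuclei 13 were higher and 10 lower, against 10% and 2.91%, and in FAP-like nuclei 12 and 3, against 7.72% and 2.31%. In mural-like nuclei 6 were higher and 3 lower, against 4.82% and 2.62%, and in immune-like nuclei 6 and 12, against 10.6% and 6.64%. The median log2 difference over the 58 genes was 0.18 in endothelial-like and -0.72 in adipocyte-like nuclei, where that of all genes tested was -0.05 and 0.09.

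In the list of further ligands and their processing, 5 of 6 genes were tested. None was called in endothelial-like nuclei, where 6.54% of all genes were higher and 2.22% lower. Ccbe1, a cofactor for the processing of Vegfc, was 333 and 375 CPM in mesothelial-like nuclei and at most 61.3 CPM elsewhere (log2 difference 3.77 ± 0.19, SE, edgeR adjusted p = 8.16e-31). Vegfd, the other lymphangiogenic ligand, was 337 and 286 CPM in FAP-like nuclei and at most 95.8 CPM elsewhere (2.63 ± 0.18, SE, edgeR adjusted p = 1.35e-22). Pgf, placental growth factor, was at 0.175 and 0.547 CPM in adipocyte-like nuclei, the former from 1 UMI, and was called lower there (edgeR adjusted p = 1.73e-04). FAP-like nuclei had 2 higher genes, Vegfd and Svep1, against 7.72% of all genes, and mesothelial-like nuclei 2, Ccbe1 and Pgf, against 10%.

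Of the 7 further receptors and co-receptors, 4 were higher in endothelial-like nuclei, namely Ptprb, Tie1, Plxnd1 and Nrp2, against 6.54% of all genes. In adipocyte-like nuclei 6 of them were lower, against 26.1%, a share that moves with the scaling. Ptprb encodes the phosphatase VE-PTP, which restrains Tie2, and was 1716 and 1074 CPM in endothelial-like nuclei against at most 47.9 CPM elsewhere (6.06 ± 0.16, SE, edgeR adjusted p = 5.38e-49). Tie1, a partner of Tie2, was 227 and 159 CPM there (5.56 ± 0.31, SE, edgeR adjusted p = 5.03e-28). In FAP-like nuclei, where Tek was high, Ptprb was at most 31.4 CPM and Tie1 at most 6.16 CPM. Itga9, an integrin subunit, was higher in FAP-like and immune-like nuclei and lower in adipocyte-like nuclei at 7.86 and 9.1 CPM (-2.66 ± 0.25, SE, edgeR adjusted p = 8.1e-16).

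Of the 10 other ligands of neuropilins and their plexin partners, 7 were called higher and 1 lower in mesothelial-like nuclei, against 10% and 2.91% of all genes. Plxna4, a semaphorin receptor, was 618 and 856 CPM there (3.33 ± 0.16, SE, edgeR adjusted p = 3.96e-32). Sema3d was 175 and 107 CPM in FAP-like nuclei (3.08 ± 0.25, SE, edgeR adjusted p = 2.38e-18). Sema3g was 264 and 126 CPM in endothelial-like nuclei (5.17 ± 0.31, SE, edgeR adjusted p = 1.19e-25). FAP-like nuclei had 4 higher genes and 1 lower, against 7.72% and 2.31% of all genes. Endothelial-like nuclei had 3 and 2, against 6.54% and 2.22%, and mural-like nuclei 1 and 0, against 4.82% and 2.62%. Adipocyte-like nuclei had 1 and 6, against 13.6% and 26.1%, and immune-like nuclei 0 and 5, against 10.6% and 6.64%.

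Of the 18 signal transducers tested, 4 were higher in endothelial-like nuclei, among them Nos3, Plcg1 and Ptk2, against 6.54% of all genes. There 1, Prkca, was lower, against 2.22%. Dok2, an adaptor of haematopoietic cells, was 77.4 and 69.4 CPM in immune-like nuclei (3.66 ± 0.32, SE, edgeR adjusted p = 4.51e-17). Shc2 was low throughout and was lower in adipocyte-like nuclei (-3.30 ± 0.68, SE, edgeR adjusted p = 2.08e-05), on 0.175 and 0.445 CPM.

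Of the 4 target and tip cell genes tested, 3 were called higher in endothelial-like nuclei, Aplnr, Dll4 and Unc5b, against 6.54% of all genes. Dll4, a Notch ligand of tip cells, reached 181 and 79.6 CPM in the endothelial-like type, against 14 CPM or less elsewhere (edgeR adjusted p = 8.87e-22). Aplnr, the apelin receptor, was 125 and 28.9 CPM there and at most 1.8 CPM elsewhere (edgeR adjusted p = 5.76e-16). Cd34 was highest in FAP-like nuclei at 695 and 326.5 CPM (3.16 ± 0.18, SE, edgeR adjusted p = 1.15e-27). The 14 genes of oxygen sensing and transcription included 6 called higher in endothelial-like nuclei, against 6.54% of all genes. Of these 6, Sox17, Sox18, Erg, Fli1 and Ets1 are transcription factors, most of them known from the endothelial lineage, and Epas1 encodes a hypoxia-inducible factor. Sox18 was 403.5 and 104 CPM (6.00 ± 0.31, SE, edgeR adjusted p = 1.23e-29), Erg was 269 and 244 CPM (4.38 ± 0.25, SE, edgeR adjusted p = 2.44e-27) and Sox17 was 185.5 and 59.7 CPM, with at most 3.6 CPM elsewhere (edgeR adjusted p = 1.08e-20). Hif1a, Arnt, Vhl, Egln1 and Egln3, which act in oxygen sensing, were called in no type. Epas1 was also higher in mural-like nuclei (1.28 ± 0.24, SE, edgeR adjusted p = 2.84e-05) and lower in mesothelial-like and immune-like nuclei. Hif3a, another hypoxia-inducible factor, was higher in FAP-like nuclei (1.16 ± 0.41, SE, edgeR adjusted p = 0.0429) and lower in adipocyte-like nuclei. In adipocyte-like nuclei 1 of the 14 was higher, against 13.6% of all genes, Ppargc1a, a coactivator that can raise Vegfa. Lower there were 5, Ets1, Fli1, Sox18, Erg and Hif3a, against 26.1%.

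**Figure D5:**
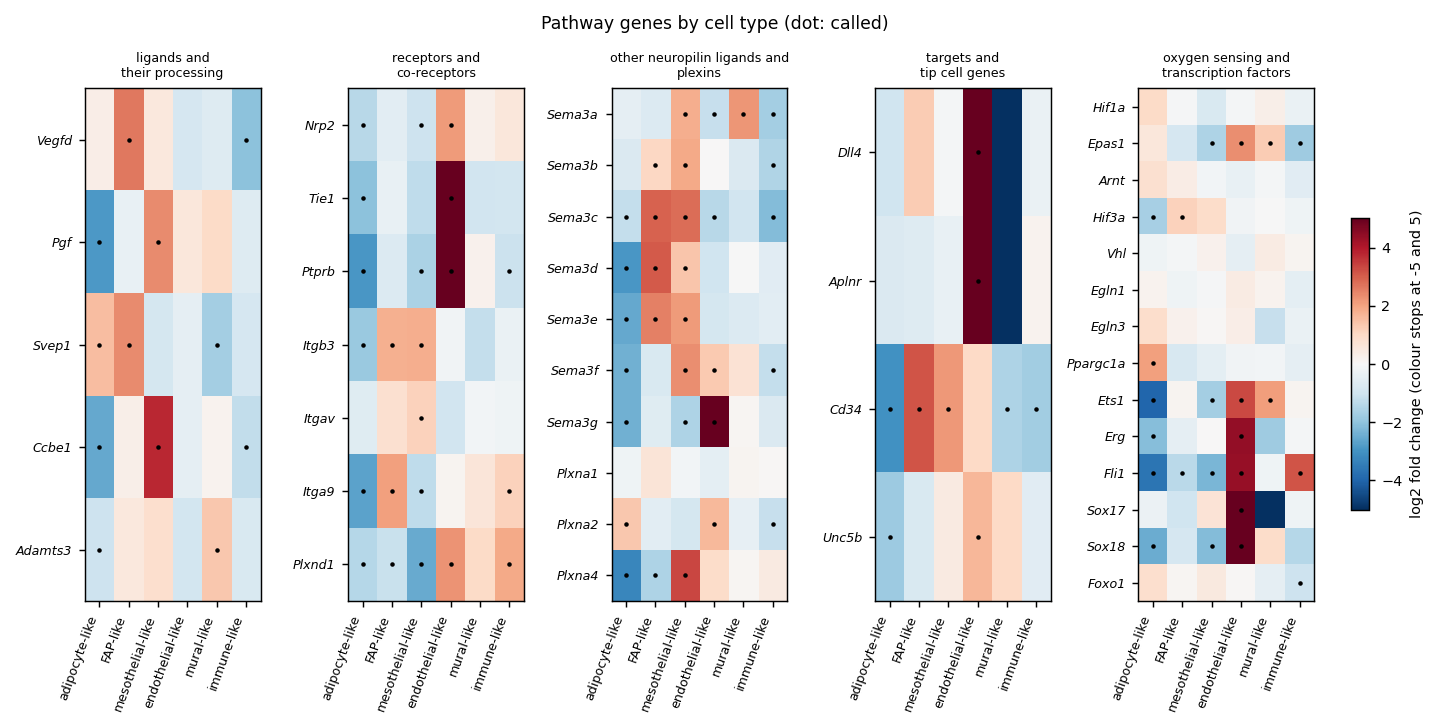
Log2 fold change of the tested pathway genes of 5 lists, without the signal transducers, in each cell type against the mean of the other types, by list, with a dot on called genes. The dark blue fields without a dot are genes with 0 UMIs in mural-like nuclei. Of the 10 other neuropilin ligands and plexins, 7 were higher in mesothelial-like nuclei, against 10% of all genes. Of the 14 genes of oxygen sensing and transcription, 6 were higher in endothelial-like nuclei, against 6.54%.

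The genes whose pattern over the 12 sums of type and library was most like that of a member were found by Pearson's r of log2(CPM + 1) over 13374 genes. The sums of 1 library share that library and its depth, so r is a description. The genes listed below for Vegfb, Vegfc and Tek, like these members, had no UMI in mural-like nuclei of replicate 1. The part of this shared absence in r was not tested. For Flt1 they were Kank3, Adgrl4 and Ptprb (r = 0.983, 0.981 and 0.981), for Kdr Ablim3, Mylip and Bmp6 (0.983, 0.972 and 0.966) and for Tek Gask1b, Tamalin and Enpp3 (0.983, 0.968 and 0.967). For Flt4 they were Sncaip, Tie1 and Gm13599 (0.938, 0.924 and 0.917) and for Nrp1 St3gal4, Lrrfip1 and Lcorl (0.885, 0.88 and 0.878). Among ligands, the genes most like Vegfa were Lpgat1, Mecr and Neat1 (0.965, 0.961 and 0.954), those most like Vegfb were Prdx6, Eno1 and Chsy1 (0.979, 0.972 and 0.97) and those most like Vegfc were Rassf9, Cttnbp2 and Samd5 (0.958, 0.954 and 0.946). Among the genes most like Angpt1 were Ranbp2 and Zkscan3 (0.962 and 0.955), and among those most like Angpt2 were Lepr and Nes (0.924 and 0.916). No other member was among the 3 genes most like any member. Between members, r was 0.82 for Flt1 and Kdr, 0.805 for Flt1 and Flt4 and 0.795 for Vegfc and Kdr. Among ligands and their receptors, r was -0.35 for Angpt1 and Tek, -0.466 for Vegfa and Kdr, -0.453 for Vegfa and Flt1 and -0.086 for Vegfb and Flt1. It was 0.338 for Angpt2 and Tek and 0.563 for Vegfc and Flt4.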

How the data were processed

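The deposited files give UMI counts per gene and nucleus. The extract protocol names the Singleron GEXSCOPE kit, another label names 10x Genomics, and the authors produced the counts with CeleScope on GRCm39. The annotation version is not given in the sources used here. The members and gene lists were chosen with earlier results of these data known. Nuclei with more than 500 genes, more than 1000 UMIs and under 15% mitochondrial UMIs were kept. Without members, pathway genes and mitochondrial genes, 1000 variable genes and 30 principal components were integrated with a Python implementation of the Harmony algorithm and clustered (leidenalg 0.10.2, resolution 0.1). A cluster was named where at least 3 and at least 50% of its markers were raised, and not where background was over 2-fold that of the median cluster without a marker among the 10 leading genes, a rule set after the clusters were seen. Scrublet called 1 nucleus per library, which is too few to have worked, so no doublets were removed in the main analysis. UMIs were summed per library and type with at least 20 nuclei in each library and tested in edgeR 4.0.16 (TMM, filterByExpr, library as a block), which was checked on simulated data. Sums of the same replicate number come from the same mouse, so the pairing is by design. Named genes were the 10 members, up to 3 called genes with the largest change per list and the 3 genes most like each member, of which some are not reported here. Alternatives included DESeq2 1.42.0, other scalings, filters and clusterings. The libraries differed beyond counting noise and were treated as 2 replicates.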

Additional observations from a re-analysis of the deposited data

How the results depend on the processing

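Of the 26 calls of a member in a cell type, 21 passed in each alternative that gave a value and 5 were lost in at least 1, with no reversal. Counts of higher calls stayed at 13 or 14 and of lower calls at 10 to 13, over 11 alternatives. Without the replicate block, 10 instead of 17 neighbouring pairs differed, and 14 higher and 10 lower calls were made. Under 5% mitochondrial UMIs, where mural-like nuclei were too few to test, 11 neighbouring pairs differed. The 25 calls between subclusters fell to 14 both without integration and with the 6% of highest doublet scores removed, where the subclusters themselves changed. Thinned to 1000 UMIs, 50.1% rather than 72% of endothelial-like nuclei, as the mean of both libraries, had at least 2 receptor genes, since fewer UMIs were left. With 1 library left out, Vegfc in immune-like nuclei lay between -1.22 and 0.02 on the log2 scale, the only change of sign among the 26 calls. The subclusters with adipocyte markers were removed, and the unnamed cluster set aside, only after seeing the data. The scaling moved the median of all genes in adipocyte-like nuclei from 0.09 to -0.39 with total UMI scaling and to -0.20 with DESeq2, and the member calls there kept their direction. Low UMI totals of Angpt2 and Flt4 and the 24 mural-like nuclei of replicate 1 limited precision, and p-values rest on 2 mice.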
